A study of Macaca mulatta with 6 samples.

Results

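Interferon-stimulated genes are the genes that cells switch on when they sense interferon, and 40 of them were listed by symbol for this description. By symbol, 34 of the 40 were found among the 24941 gene symbols of the deposited table, with 56 transcripts between them. EIF2AK2, GBP2, IFI6, MX2, OAS3 and USP18 were not matched by symbol. USP18 alone had a row under its gene identifier, and its values are given apart from the counts. RNA was measured in RF/6A, a cultured endothelial line from the choroid and retina of the rhesus macaque, grown to confluence on porous inserts in medium with fetal bovine serum. Control cells then spent 4 hours in 50% human serum heated beforehand to destroy its complement (3 libraries), and the other cells the same time in 50% normal human serum, whose active complement can build the membrane attack complex, a pore in the cell membrane (3 libraries). No group lacked serum or had complement blocked in another way, so complement cannot be told apart from any other heat-sensitive part of serum. The labels do not say whether the 3 libraries of a group came from separate cultures, so the p-values given here reflect differences among libraries that could be technical replicates.

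Interferons act through cell-surface receptors whose kinases, JAK1 and TYK2 for type I interferon, phosphorylate STAT proteins. STAT2 and IRF9 belong to the complex that then binds the promoters of interferon-stimulated genes. The products block viral entry, translation and replication, tag proteins with the ubiquitin-like ISG15, raise antigen presentation and feed back on the pathway. Many of these genes are also expressed at a low level without added interferon, and endothelial cells respond to interferon strongly.

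Levels are in FPKM, fragments scaled for transcript length and library depth, summed over the transcripts of a symbol. In replicates 2 and 3 of both groups low values came in steps of 1 fragment (100% of them whole within 0.1 fragments), which placed depth between 14200000 and 17300000 fragments. In the replicate 1 libraries only 54.4% and 47.6% were whole, so fragment numbers there are approximate, and a second principal component (13.3% of the variance) set these libraries of both groups apart from the other 4. The first component (61.0%) separated the treatments. A gene was tested when its mean over the 6 libraries reached 1 FPKM, with limma on log2(FPKM + 1) and Benjamini-Hochberg adjustment over all 11819 genes tested. "Fell" and "rose" below mean an adjusted p under 0.05. Markers did not clearly bear out the endothelial identity of the line. All 5 mural or fibroblast markers averaged at least 1 FPKM over the 6 libraries. In the control their means ran from 22.1 FPKM (ACTA2) to 3870 FPKM (COL1A1). Of 9 endothelial markers 3 averaged at least 1 FPKM over the 6 libraries (PECAM1, ESAM and ENG). The VE-cadherin gene CDH5 averaged 0.0110 FPKM in normal serum, with 0 listed for each control library.

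Of the 34 interferon-stimulated genes found, 26 were tested, and 18 of these were lower in normal serum than in heat-inactivated serum. A single gene rose, 7 did not pass the threshold, and the other 8 genes were below the filter. Across all genes tested, 26.1% fell and 27.8% rose, or 54% in either direction. Among the tested genes, the deepest falls on the log2(FPKM + 1) scale were in the antiviral effectors IFIT1 and MX1, which kept 15.6% and 17.7% of their control mean, followed by IFIT3, IFIT2, GBP1, STAT2 and IFIH1. The gene that rose was ISG20, an exonuclease that degrades RNA. The median change over the 26 genes was -0.57 on the log2 scale, against 0.01 over all genes tested. In bulk RNA, fewer cells that express a gene and less RNA per cell cannot be told apart.

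**Figure D1:**
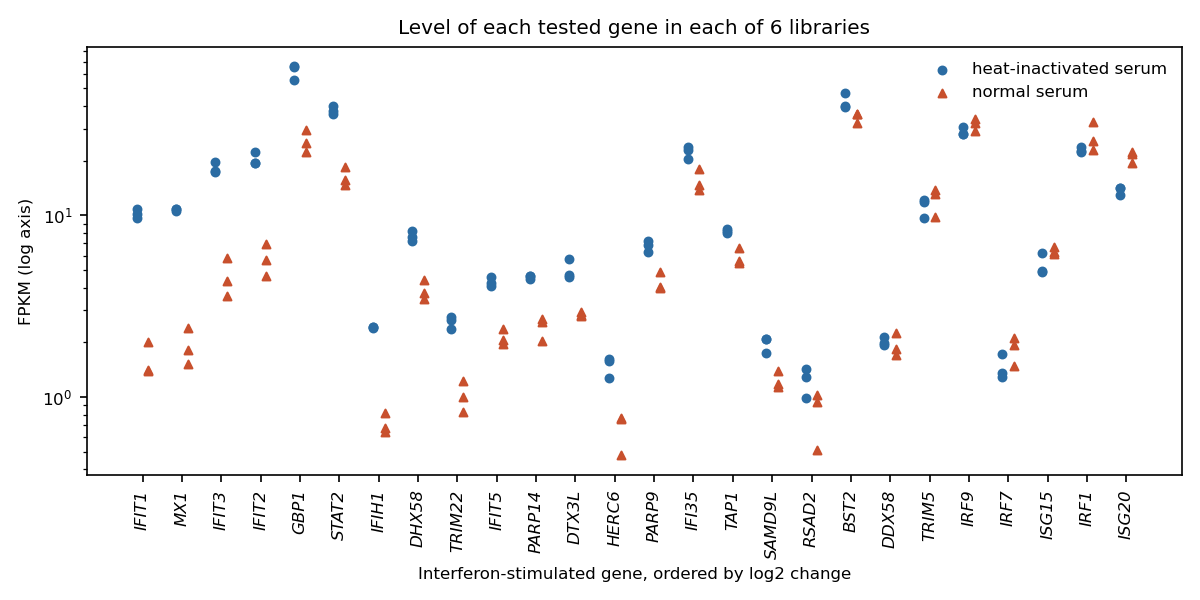
FPKM on a log axis of the 26 tested interferon-stimulated genes in each library, 3 with heat-inactivated serum (circles) and 3 with normal serum (triangles), ordered by log2 change. The groups are widely apart for the genes on the left, such as IFIT1 and MX1, they overlap for IRF9, IRF7 and ISG15 on the right, and ISG20 at the far right is higher in all 3 normal serum libraries.

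All 3 normal serum libraries lay below all 3 control libraries for 18 of the 26 tested genes. Such separation downward was seen in 30.5% of all genes tested, and upward in 32.1%. A mean of at least 1 FPKM favours genes that are high in either group, so the genes that passed only through the control were looked at apart. HERC6, IFIH1 and RSAD2 had a mean under 1 FPKM in normal serum. Without these 3, 16 of 23 genes fell and 1 rose (69.6% and 4.35%). Of all genes tested, with such genes kept in, 26.1% fell and 27.8% rose. With every gene above 0 tested, 21 of 34 fell and 1 rose, where 18.9% and 19.6% of all genes did.

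The signalling factors differed among themselves. STAT2, a subunit of the interferon-activated transcription complex, read 36.0, 40.0 and 37.3 FPKM in the control libraries and 14.8, 15.6 and 18.4 FPKM in normal serum. The groups did not overlap, and the mean was 2.32-fold lower. Its log2 change was -1.17 ± 0.09 (SE, limma adjusted p = 6.43e-05). IRF9, which gives the complex its DNA contact, stood at 28.0, 30.6 and 28.0 FPKM against 29.1, 32.2 and 33.9 FPKM, and the groups overlapped. Its change of 0.13 did not pass (limma adjusted p = 0.186) and turned negative after scaling all libraries to equal total FPKM. IRF1, a transcription factor that responds chiefly to interferon-gamma and NF-kappaB, read 22.2, 23.8 and 22.5 FPKM in the control. In normal serum it read 22.8, 32.8 and 25.8 FPKM, with replicate 2 well above the other libraries of its group. The IRF1 change of 0.22 did not pass (limma adjusted p = 0.166), but it did without normal serum replicate 1 (0.34, adjusted p = 0.0392). IRF7, which drives interferon genes themselves, was low in both groups, at 1.45 ± 0.23 and 1.84 ± 0.32 FPKM (SD, n = 3 per group), and did not pass (limma adjusted p = 0.232).

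Sensors of foreign RNA also moved unequally. IFIH1, which encodes the long-RNA sensor MDA5, was tightly reproduced in the control at 2.43, 2.41 and 2.41 FPKM. It fell to 0.638, 0.677 and 0.815 FPKM, a 3.41-fold lower mean (limma adjusted p = 2.82e-04). These levels correspond to about 111 to 127 fragments per control library and 29.3 to 45.7 in normal serum. DHX58, whose product LGP2 modulates MDA5 and RIG-I, went from 7.58, 8.204 and 7.27 to 3.46, 4.41 and 3.73 FPKM, with no overlap (log2 change -0.84, limma adjusted p = 3.93e-04). DDX58, which encodes RIG-I itself, stood at 2.02 ± 0.12 and 1.93 ± 0.30 FPKM with overlapping groups (limma adjusted p = 0.743). The sign of its small change was not stable, as it turned positive with quantile normalization.

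OAS1 and OAS2, oligoadenylate synthetases that activate the RNA-cutting enzyme RNase L, were too low for the test, as was the related OASL. OAS2 read 1.10, 1.09 and 1.53 FPKM in the control and 0.514, 0.720 and 0.630 FPKM in normal serum, with no overlap. OAS1 rested on 7.72 to 9.82 fragments per control library and 1.96 to 3.95 in normal serum. OASL had at most 2.76 fragments in any library. When all genes above 0 were tested, OAS1 and OAS2 were lower (limma adjusted p = 0.0130 and 0.0132).

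Among the effectors, 18 of 21 listed genes were found and 13 tested. Of these 13, 10 fell and 1 rose (76.9% and 7.69%, against 26.1% and 27.8% of all genes tested). The IFIT proteins bind viral RNA and block its translation, and their 4 measured genes lie on chromosome 9. IFIT1 read 10.2, 9.69 and 10.9 FPKM in the control and 1.38, 2.01 and 1.41 FPKM in normal serum, a log2 change of -2.12 ± 0.11 (SE, limma adjusted p = 1.34e-05). IFIT3 went from 17.4, 17.5 and 19.6 to 3.59, 5.80 and 4.33 FPKM, and IFIT2 from 19.3, 19.5 and 22.4 to 4.66, 6.95 and 5.71 FPKM. Control libraries lay within a narrow band in each of these genes, and normal serum replicate 2 was the highest of its group. IFIT5, another member of the family, went from 4.23, 4.57 and 4.10 to 2.06, 1.95 and 2.37 FPKM (log2 change -0.76, limma adjusted p = 5.52e-04).

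MX1, a dynamin-like GTPase that traps viral nucleocapsids, read 10.8, 10.9 and 10.5 FPKM in the control and 1.51, 2.38 and 1.82 FPKM in normal serum. Its mean was 5.63-fold lower (log2 change -2.03 ± 0.12, SE, limma adjusted p = 1.82e-05). The guanylate-binding protein gene GBP1, a classical target of interferon-gamma, had the highest mean control level of the 34 members found, at 55.8, 66.0 and 65.6 FPKM. In normal serum it read 22.2, 29.6 and 25.1 FPKM, 41.0% of the control mean (limma adjusted p = 1.28e-04). TRIM22, an antiviral ubiquitin ligase, fell from 2.75, 2.65 and 2.38 to 0.995, 1.22 and 0.830 FPKM. Smaller falls were those of IFI35 (log2 change -0.50), SAMD9L (-0.41) and BST2 (-0.27), which encodes tetherin, a protein that holds budding viruses at the membrane.

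The SAMD9L and BST2 calls were not stable. BST2 read 39.9, 39.3 and 47.4 FPKM against 36.1, 36.1 and 32.1 FPKM, and its call (limma adjusted p = 0.0385) ended without heat-inactivated serum replicate 3 or any 1 normal serum library (adjusted p from 0.0524 to 0.114). It also ended within replicates 2 and 3 alone (0.0547), with a term for each replicate number (0.0628) and without the filter (0.0556). SAMD9L (limma adjusted p = 0.0202) was no longer called with quantile normalization (0.0884) or without replicate 2 or 3 of either group (0.05002 to 0.0654). Of the effectors that did not pass, RSAD2, which encodes viperin, read 0.986, 1.42 and 1.28 FPKM in the control and 0.513, 1.03 and 0.943 FPKM in normal serum, where the groups overlapped (limma adjusted p = 0.163). TRIM5, which targets retroviral capsids, stood at 11.2 ± 1.33 and 12.2 ± 2.19 FPKM (SD, limma adjusted p = 0.562), and its sign turned with rescaling to the same total FPKM.

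ISG20 went the other way, from 14.1, 13.0 and 14.1 FPKM in the control to 22.4, 19.3 and 21.9 FPKM in normal serum. The lowest normal serum library lay above the highest control library, and the mean was 155% of the control (log2 change 0.59 ± 0.08, SE, limma adjusted p = 6.27e-04). It stayed called under all 19 alternatives run, with log2 changes between 0.43 and 0.65.

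The remaining 5 effectors were below the filter. IFI44 stood at 0.782 ± 0.18 FPKM in the control and 0.406 ± 0.16 FPKM in normal serum (SD), with no overlap. XAF1, which encodes a death-promoting antagonist of XIAP, rested on 2.95 to 6.87 fragments per control library and at most 0.990 in normal serum. Both were lower when all genes above 0 were tested (limma adjusted p = 0.0486 for IFI44 and 0.0121 for XAF1). CMPK2 (0.863 and 0.688 FPKM) and SAMD9 (0.315 and 0.253 FPKM) had overlapping groups, and IFI44L amounted to about 1 fragment per library or less.

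Genes for protein modification included ISG15 and enzymes that attach ubiquitin or ADP-ribose. ISG15 itself read 6.24, 4.97 and 4.89 FPKM in the control and 6.31, 6.70 and 6.10 FPKM in normal serum. The groups overlapped through control replicate 1, and the change of 0.22 did not pass (limma adjusted p = 0.109). It did pass without heat-inactivated serum replicate 1 (0.31, adjusted p = 0.0257) and within replicates 2 and 3 alone (0.32, adjusted p = 0.0439). The other 4 of the 5 tested genes of this group fell (80%, against 26.1% of all genes tested). PARP14, an ADP-ribosyltransferase, went from 4.65, 4.65 and 4.47 to 2.03, 2.70 and 2.59 FPKM, and DTX3L, a ubiquitin ligase that works with PARP9, from 4.71, 4.55 and 5.73 to 2.95, 2.83 and 2.79 FPKM. HERC6, a HECT-type ubiquitin ligase, stood at 1.48 ± 0.18 and 0.666 ± 0.16 FPKM (SD, limma adjusted p = 0.00935), and within replicates 2 and 3 alone it was no longer called (adjusted p = 0.0694). PARP9 fell to 63.1% of its control mean (limma adjusted p = 0.00223). USP18, which removes ISG15 and dampens the interferon receptor, was matched through a table of gene names. It read 1.32, 1.71 and 1.602 FPKM in the control and 2.14, 2.47 and 1.79 FPKM in normal serum, where every library was higher, but its change of 0.30 did not pass (limma adjusted p = 0.0821).

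TAP1, which pumps peptides into the endoplasmic reticulum for loading on class I molecules, read 8.24, 8.40 and 7.95 FPKM in the control. In normal serum it read 6.62, 5.48 and 5.58 FPKM, all below the control (log2 change -0.42 ± 0.09, SE, limma adjusted p = 0.00522).

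**Figure D2:**
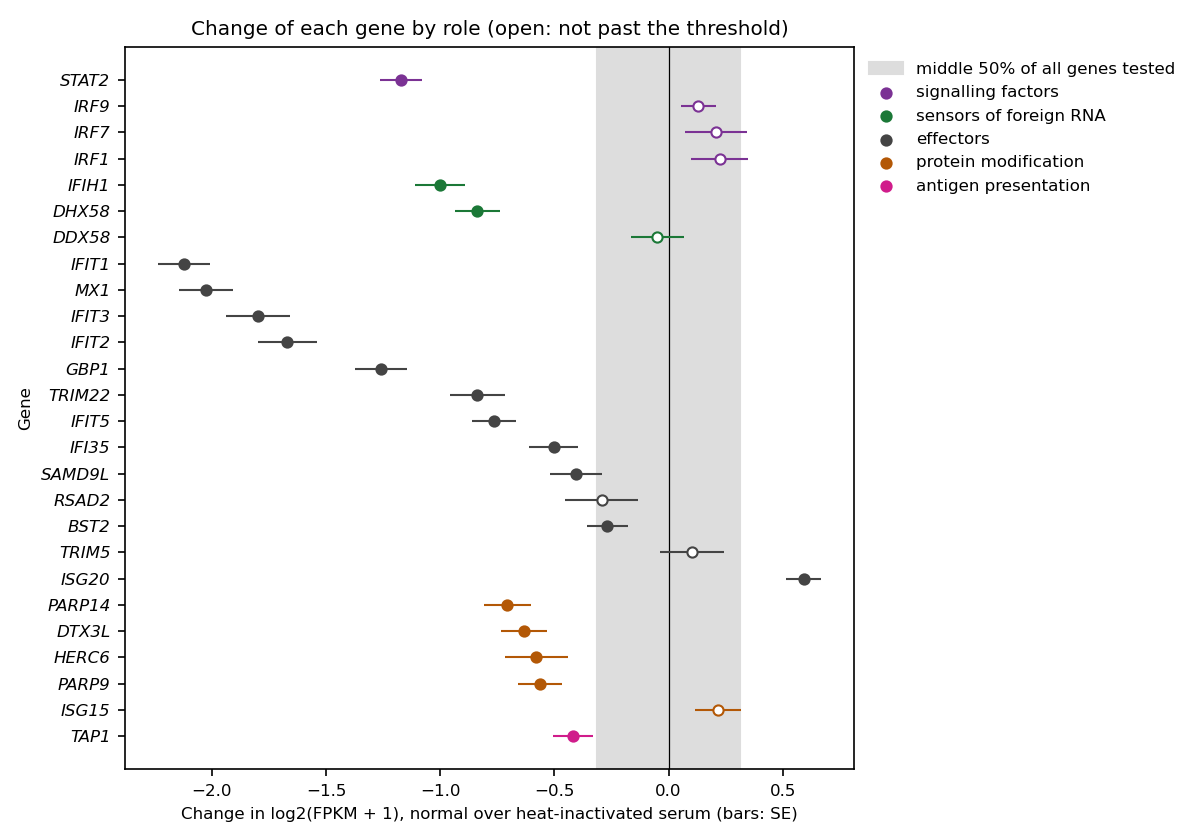
Change in log2(FPKM + 1) with its SE for the 26 tested interferon-stimulated genes, grouped by role, with genes past the threshold filled and the others open. The grey band holds the middle 50% of all genes tested. IFIT1 and MX1 lie beyond -2, STAT2 is the only filled signalling factor, and ISG20 is the only filled gene above 0.

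Several of the genes sit beside each other in the genome, as judged by the order of protein-coding genes in the RefSeq annotation of the T2T-MMU8v2.0 assembly. IFIT2 and IFIT3 were neighbours, as were IFIT1 and IFIT5, and all 4 fell. DTX3L and PARP9, neighbours on chromosome 2, had log2 changes of -0.63 and -0.56. TRIM22 and TRIM5, neighbours on chromosome 14, did not move alike, at -0.84 ± 0.12 and 0.10 ± 0.14 (SE). The difference between those changes was not tested. In 3 more neighbouring pairs at least 1 gene was below the filter. With every gene above 0 tested, IFI44 was lower (-0.34, limma adjusted p = 0.0486) and its neighbour IFI44L stood at 0.0357 (adjusted p = 0.583). SAMD9L was lower there (-0.41, adjusted p = 0.0152) and SAMD9 did not pass (-0.0676, adjusted p = 0.409), nor did RSAD2 (-0.29, adjusted p = 0.148) or CMPK2 (-0.15, adjusted p = 0.332). MX1 and MX2, OAS1 and OAS3, and GBP1 and GBP2 were also neighbours, but the second gene of each pair was not matched in the table.

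Single transcripts gave a less even picture than the gene sums. In PARP9, nearly all FPKM in the control libraries belonged to a transcript of 3123 bases (6.29, 6.87 and 7.22 FPKM). In normal serum replicate 2 the same transcript held 4.85 FPKM, while in replicates 1 and 3 it held 0.00435 and 0.0187 FPKM and a transcript of 3113 bases held 3.97 and 4.02 FPKM. The sum over both was even, at 3.98, 4.86 and 4.04 FPKM in normal serum. In the authors' deposited table neither PARP9 transcript had a q-value below 0.05 (0.350 and 0.403). With the highest transcript standing for the gene, the PARP9 log2 change went from -0.56 to -2.10. In MX1, both main transcripts were lower, the one of 786 bases from 6.42 ± 0.24 to 0.700 ± 0.17 FPKM and the one of 2443 bases from 4.04 ± 0.45 to 1.06 ± 0.50 FPKM (SD). In IRF9 the main transcript of 3473 bases stood at 19.0 ± 0.70 and 17.0 ± 0.58 FPKM, while that of 4669 bases stood at 7.05 ± 0.37 and 8.71 ± 0.33 FPKM. A transcript of 644 bases stood at 2.64 ± 0.75 and 5.46 ± 1.37 FPKM. The authors' deposited table gave q-values of 0.282, 0.112 and 0.261 for these IRF9 transcripts.

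**Figure D3:**
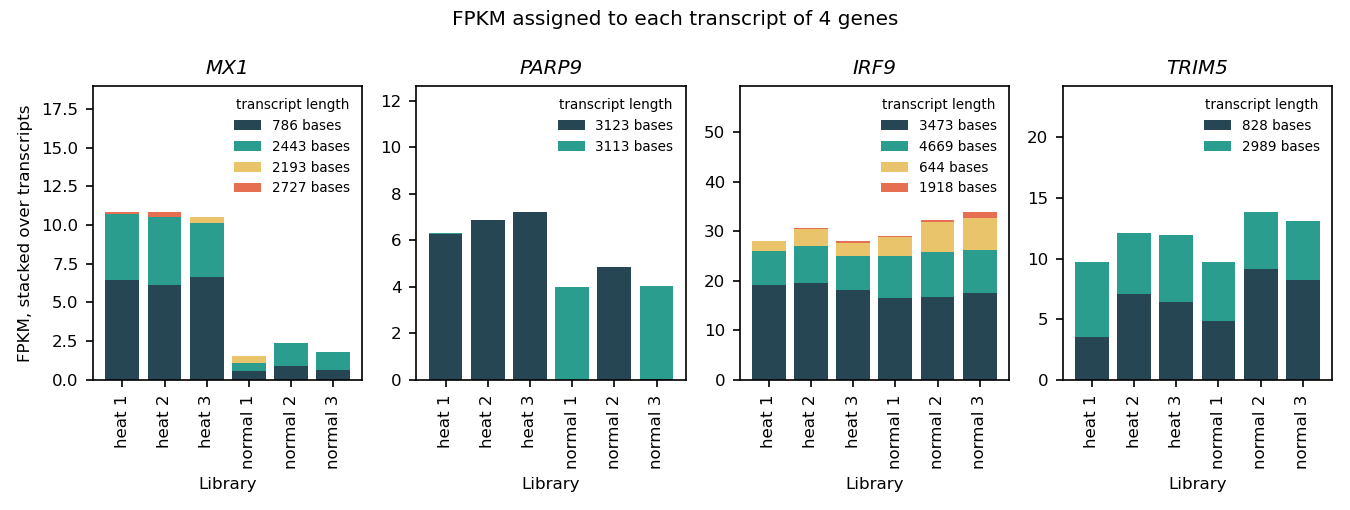
FPKM in each of the 6 libraries stacked over the annotated transcripts of MX1, PARP9, IRF9 and TRIM5, named by length in bases. Both main MX1 transcripts shrink in normal serum, the PARP9 signal sits on a transcript of 3113 bases in normal serum replicates 1 and 3 and on one of 3123 bases in the other libraries, and the IRF9 and TRIM5 sums overlap between the groups.

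In the authors' deposited table, 36 of the 56 transcripts had status OK, and 11 of these, from 10 genes, passed all of the authors' marks as lower. None of them passed as higher. Among all transcripts with status OK, 3.49% passed as lower and 3.14% as higher. The ISG20 transcript had a q-value of 2.23e-04 there with a log2 change of 0.63, below the fold needed for the authors' mark. For some genes the authors' q-values differed from the gene test. IRF1 (log2 change 0.25, q-value 0.0234) and an IRF7 transcript of 1941 bases (1.595, q-value 0.0383) were higher there. The other IRF7 transcript with status OK, of 1856 bases, had a log2 change of -0.16 (q-value 0.793). DHX58, which fell by the gene test, had a q-value of 0.210. By the gene test, 7 of the 26 genes fell by at least 1 on the log2 scale, as did 2.56% of all genes tested.

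The normal serum libraries were not equal in these genes. Of the 18 genes that fell, 11 were highest in replicate 2 of normal serum and 11 were lowest in replicate 1. The order was not counted over all genes that fell, so it cannot be called particular to these genes. Within replicates 2 and 3 alone, 16 of the 26 genes fell and 2 rose, against 21.6% and 25.3% of all genes.

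Genes around this pathway were grouped into 7 lists, of which 106 genes outside the members were found and 77 tested. Of these 77, 35 fell (45.5%, against 26.1% of all genes tested) and 9 rose (11.7%, against 27.8%). BATF2, EPSTI1 and APOL6 passed the filter only through the control, and without them 32 of 74 fell and 9 rose. Interferon genes themselves were close to undetected. Of 13 listed symbols 6 were found and none reached the filter. IFNB1, a type I interferon gene, was listed at 0 in 5 libraries and at 0.132 FPKM in normal serum replicate 3. IFNA2 was listed at 0.0961 FPKM in control replicate 2 and 0.107 FPKM in normal serum replicate 2.

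Of 4 tested interferon receptor genes 3 fell, where 26.1% of all genes tested did. IFNAR1, a chain of the type I receptor, read 12.3, 9.27 and 11.0 FPKM in the control and 4.04, 4.19 and 3.82 FPKM in normal serum, far apart (log2 change -1.23 ± 0.11, SE, limma adjusted p = 1.02e-04). The interferon-gamma receptor chain IFNGR2 went from 111.7 ± 3.31 to 57.6 ± 3.30 FPKM (SD, limma adjusted p = 3.33e-05), and IFNGR1 fell by 0.38 on the log2 scale.

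Of 8 receptor kinases and transcription factors 3 fell (37.5%, against 26.1% of all genes tested), and the other 5 were not past the threshold. TYK2, the kinase bound to IFNAR1, read 8.63, 8.76 and 7.66 FPKM in the control and 4.59, 4.08 and 4.49 FPKM in normal serum (log2 change -0.79, limma adjusted p = 2.57e-04). IRF2, which competes with IRF1, and BATF2, a partner of IRF1, had log2 changes of -0.39 and -0.86. BATF2 rested on 2.104 to 10.9 fragments per normal serum library.

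Regulators of the pathway moved both ways, with 6 of 9 lower and 2 higher (66.7% and 22.2%, against 26.1% and 27.8% of all genes tested). SOCS3, which inhibits JAK signalling chiefly at gp130 receptors, rose from 48.9, 46.7 and 35.7 to 101.2, 89.6 and 100.8 FPKM (limma adjusted p = 2.50e-04). SOCS1, the main brake on interferon receptors and chosen after its values were seen, fell from 4.14, 4.12 and 3.86 to 1.27, 0.720 and 1.46 FPKM (limma adjusted p = 4.17e-04). PIAS1, which restrains STAT proteins, fell by 0.75 on the log2 scale. UBA7, the enzyme that activates ISG15 and so no inhibitor although it is in this list, fell by 0.68.

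Of 9 nucleic acid sensors and adaptors 3 rose and 2 fell, shares (33.3% and 22.2%) near those of all genes tested (27.8% and 26.1%). MYD88, an adaptor of Toll-like receptors, rose from 12.3 ± 0.74 to 22.7 ± 0.45 FPKM (SD, limma adjusted p = 6.97e-05) and TICAM1, the adaptor of TLR3, 1.40-fold, while the kinase gene IKBKE fell by 0.51 on the log2 scale. Of 35 other interferon-stimulated genes 16 fell (45.7%), 18 were not past the threshold and 1, OGFR, rose. The 3 with the smallest adjusted p among them were PLSCR1 (49.2 ± 2.93 to 27.8 ± 1.79 FPKM), RNF213 (18.5 ± 0.50 to 11.4 ± 1.05 FPKM) and PML (19.9 ± 1.61 to 12.5 ± 0.27 FPKM). Of 15 genes of class I antigen presentation 5 fell and 3 rose, shares (33.3% and 20%) also near those of all genes tested. NLRC5, the transactivator of class I genes, fell by 0.76 on the log2 scale and the chaperone gene TAPBP by 0.45, while PSME2, a proteasome activator subunit, rose 1.51-fold.

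**Figure D4:**
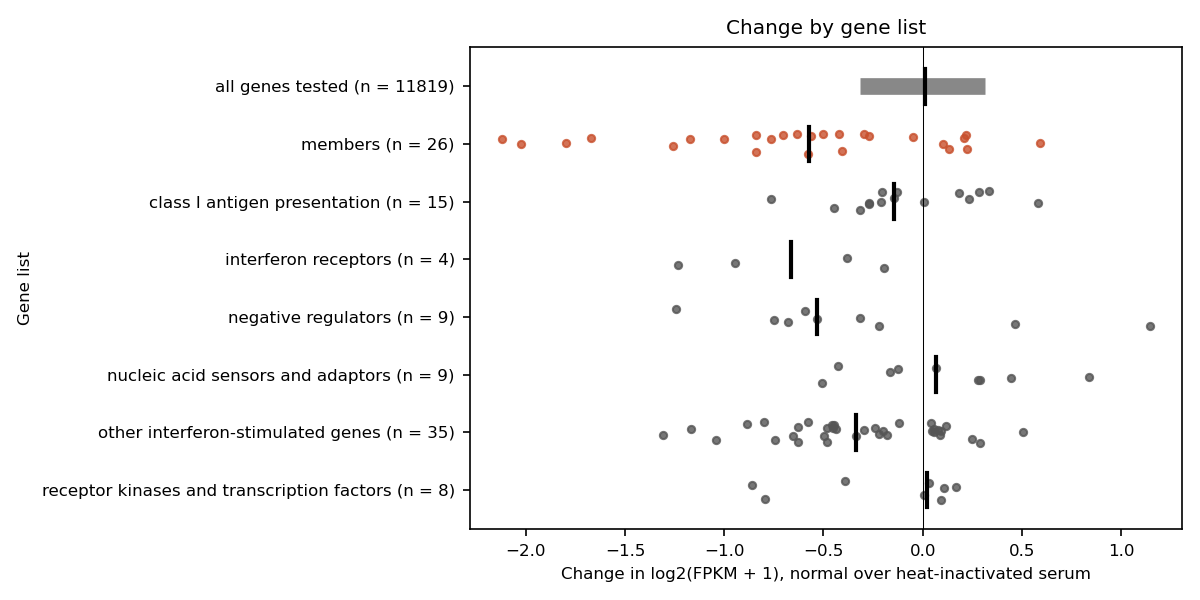
Change in log2(FPKM + 1) of single tested genes (points) with the median of each list (black lines), for the members, 6 pathway lists with tested genes and, as a grey bar holding the middle 50%, all genes tested. The median of the members lies at -0.57 and that of all genes at 0.01, and the lists of sensors and of kinases are spread on both sides of 0.

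Markers of other cell types were set beside these results. The summed level of 5 mural and fibroblast markers lay between 6383 and 6882 FPKM in the control libraries and between 2949 and 3080 FPKM in normal serum, and their part in the lower interferon-stimulated genes was not tested. The summed endothelial markers lay between 67.3 and 68.9 FPKM in the control and between 82.6 and 94.0 FPKM in normal serum. Most of that sum was ENG (61.2 and 74.2 FPKM). PECAM1 (3.35 and 7.95 FPKM), ESAM (2.63 and 4.91 FPKM) and VWF (0.172 and 1.05 FPKM) also had higher means in normal serum. The low markers KDR (0.370 and 0.105 FPKM), TEK (0.0930 and 0.0457 FPKM) and TIE1 (0.0176 and 0.0115 FPKM) had lower means there. CLDN5 differed little (0.233 and 0.255 FPKM). Of 7 leukocyte markers, 3 averaged at least 1 FPKM over the 6 libraries. These were LYZ (7.82 and 5.17 FPKM), CD68 (7.32 and 8.62 FPKM) and CD14 (1.45 and 1.10 FPKM). PTPRC, carried by all leukocytes, was near 0 (0.0234 and 0.00532 FPKM). The list summed to between 14.5 and 19.0 FPKM against 13.5 to 16.2 FPKM. Of 4 markers listed for interferon-making leukocytes 2 were found. LILRA4, a marker of the plasmacytoid dendritic cells that make interferon, was listed at 0 in all libraries. IRF8 was low but detected (0.395 and 0.241 FPKM).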

How the data were processed

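The authors deposited FPKM per transcript for each of the 6 libraries, made from polyadenylated RNA. Tools named in the submitters' processing notes are TopHat2 2.0.7, Cufflinks 2.1.1 and Cuffdiff 2.1.1. A genome build was not given in the sources used here. Per the file headers, each of the 44605 transcripts also has a log2 fold change, a p-value and a q-value from the authors. FPKM was summed per symbol, so isoforms of a gene are not told apart in the sums. How reads shared by close paralogs (such as the IFIT genes) or by overlapping genes were assigned was not examined, and strand was not stated.

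The test was limma 3.58.1 (R 4.3.3), run on log2(FPKM + 1) of all genes that averaged at least 1 FPKM, with a trended variance and no batch term. This scale understates the change of low genes. The test was also run on simulated data built from the means and spreads of these libraries, with results not given here. Each of the 40 genes is accounted for, and up to 3 called genes with the smallest adjusted p are named per pathway list. The genes, lists and tests were chosen with earlier results of these data known. Fragment numbers were read from the FPKM steps of genes with a single transcript. Alternatives changed the pseudocount, filter, scaling, variance model, transcript summing, covariates and libraries. Promoters and proteins were not analysed here.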

Additional observations from a re-analysis of the deposited data

How the results depend on the processing

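Of the 19 genes called among the members, 16 kept their direction and call under all of the 19 alternatives in which they were tested, and BST2, SAMD9L and HERC6 lost the call under some, as given above. The members that fell numbered 11 of 16 tested with a mean of at least 5 FPKM, as fewer genes were tested. Of all genes 24.6% fell and 33.5% rose there. Under the other alternatives with the filter kept, 16 to 18 members fell, and 21.6% to 37.1% of all genes did. Members that rose numbered 2 within replicates 2 and 3 alone and 1 to 2 when a library was left out, where ISG15 or IRF1 joined ISG20. Of all genes, 25.3% rose within replicates 2 and 3 alone and 23.6% to 26.0% when a library was left out. Deviations of same-numbered libraries correlated at 0.193, 0.0328 and 0.00689 for replicates 1, 2 and 3. Replicate 1 of either group correlated at -0.135 to -0.0892 with the other numbers, so the replicate 1 libraries shared some deviation. Replicates 2 and 3 were not paired by number, as crossing them gave 0.107 and 0.0855. With a replicate block 17 members fell and 1 rose, as BST2 was no longer called, against 27.5% and 29.8% of all genes. Rescaling to the same total FPKM moved the median of all genes from 0.01 to -0.12 and the share of calls that were higher from 51.6% to 34.7%, with 1949 genes and 5 pathway genes higher. The median of the members was -0.67 there. Rescaling on transcripts of at least 300 bases, chosen after seeing the data, gave a median of -0.14 for all genes and -0.69 for the members, 32.97% of calls higher and 2159 genes higher. The cause of the unequal totals was not tested. The sign turned in 3 genes that were not called: IRF9 (-0.00998 and -0.0365 under these rescalings, -0.155 with the highest transcript), TRIM5 (-0.0300 and -0.0555 under these rescalings) and DDX58 (0.0876 with quantile normalization, 0.0403 within replicates 2 and 3 alone, and -0.128 to 0.00925 when a library was left out). Depth limits OAS1, OASL, XAF1 and IFI44L, which rest on fewer than 10 fragments per library.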
